A study of Mus musculus with 54 samples.

Results

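Binding of CTCF and of the cohesin subunits Rad21 and Smc3 was examined across the clustered protocadherin genes of mouse chromosome 18. The members were the 57 protein-coding genes whose symbols begin with Pcdha, Pcdhb or Pcdhg between 36.9 and 37.9 Mb of the mm10 genome, of which 14 belong to the alpha, 22 to the beta and 21 to the gamma cluster, together with every peak whose summit lay in that interval. Of the 781274 peaks in all lists, 1142 had their summit there, 879 for CTCF, 208 for Smc3 and 55 for Rad21. Overlapping peaks of the same antibody were merged across libraries, which gave 93 CTCF sites of 68126 in the genome, 43 Smc3 sites of 46774 and 16 Rad21 sites of 14282.

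The study asked how the RNA-binding zinc finger 1 (ZF1) of CTCF bears on chromatin loops in mouse E14 embryonic stem cells (ESCs) and, after 2 days of neural differentiation, in neural progenitor cells (NPCs). Each rescue line is a single clone in which the 2 CTCF alleles were fused to mAID-eGFP for degradation by OsTir1(F74G) expressed from Rosa26, with an Hb9-mCherry reporter, and in which a doxycycline-inducible Flag-Halo CTCF transgene at Tigre supplied either the wild-type protein (WT) or a protein lacking ZF1 (ΔZF1). All rescue cells, WT and ΔZF1 alike, received the auxin analog 5-Ph-IAA at 1 µM and doxycycline at 1 µg/ml for 24 hours, so that the WT samples are also transgene rescues and not unmodified cells. PodxlpA and Grb10pA are clones with an eGFP cassette and an SV40 polyadenylation signal inserted into both alleles of Podxl or of Grb10 to end transcription early, and their NPCs were set against NPCs of the E14 parent, all with endogenous CTCF and without degron treatment. CTCF was mapped in 4 libraries of each of the 4 rescue groups and in 2 libraries each of E14, PodxlpA and Grb10pA NPCs. Smc3 was mapped in 2 libraries of all 7 groups, and Rad21 in 2 libraries of each rescue group. The lists hold no RNA levels, so the cell types could not be checked against marker genes and are given as labelled.

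Clustered protocadherins are adhesion proteins of the neuronal surface. Each alpha and gamma gene supplies its own promoter and a large variable exon, which is spliced to constant exons shared within the cluster, whereas each beta gene consists of its own exon alone. Single neurons express different sets of these genes, and the resulting surface code serves self-recognition and self-avoidance of neurites. CTCF is known to bind a conserved element of most variable promoters and, in alpha genes, also the variable exon, and with cohesin it connects promoters to enhancers that lie between the alpha constant exons and the beta cluster and downstream of the gamma cluster. The C-type genes Pcdhac1, Pcdhac2, Pcdhgc3, Pcdhgc4 and Pcdhgc5 are the last variable exons of their clusters and are known to be expressed more uniformly than the others. Sequences of this region are not printed here.

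The lists of the 16 CTCF rescue libraries held 5755 to 45941 peaks, those of the E14 and polyadenylation lines 15505 to 28805. In replicates 1 and 4 of the rescue groups the median peak was 352 to 447 bp wide, in replicates 2 and 3 it was 190 to 301 bp, and these pairs of replicates are therefore also given apart. The share of a CTCF list that fell in the protocadherin interval was 0.117% to 0.232%. Smc3 lists held 8169 to 34104 peaks and Rad21 lists 1306 to 10415. The lists differed in length and state no read depth, so a missing peak says only that the caller did not pass it at that depth. A lower share of cells with CTCF on a site and weaker binding in every cell cannot be told apart in these bulk samples.

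CTCF lay on promoters in all 3 clusters, and the position of a further peak inside the variable exon differed between them. Of the 57 genes, 49 had a CTCF peak at the promoter in at least 1 of 22 libraries, 37 had one in the variable exon and 32 had both. Pcdhb1, Pcdhgc4 and Pcdhgc5 had neither. A promoter peak is one with its summit from 1000 bp before to 100 bp after a start of the gene, and a variable exon peak is one beyond this window inside the exon. By genes, the median promoter summit lay at −64 bp in alpha, −48 bp in beta and −51 bp in gamma. The exon summits of 10 alpha genes lay at +190 to +557 bp, with a median of +522 bp. Those of 16 of the 17 beta genes with an exon peak lay at +2050 to +2401 bp, and the remaining gene, Pcdhb11, had its exon summit at +284 bp. These are medians over each gene's exon peaks, and Pcdhb17 also had a separate exon site at +128 bp. Gamma exon summits were split, at +184 to +457 bp in 5 genes and at +1873 to +2536 bp in the other 5.

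**Figure D1:**
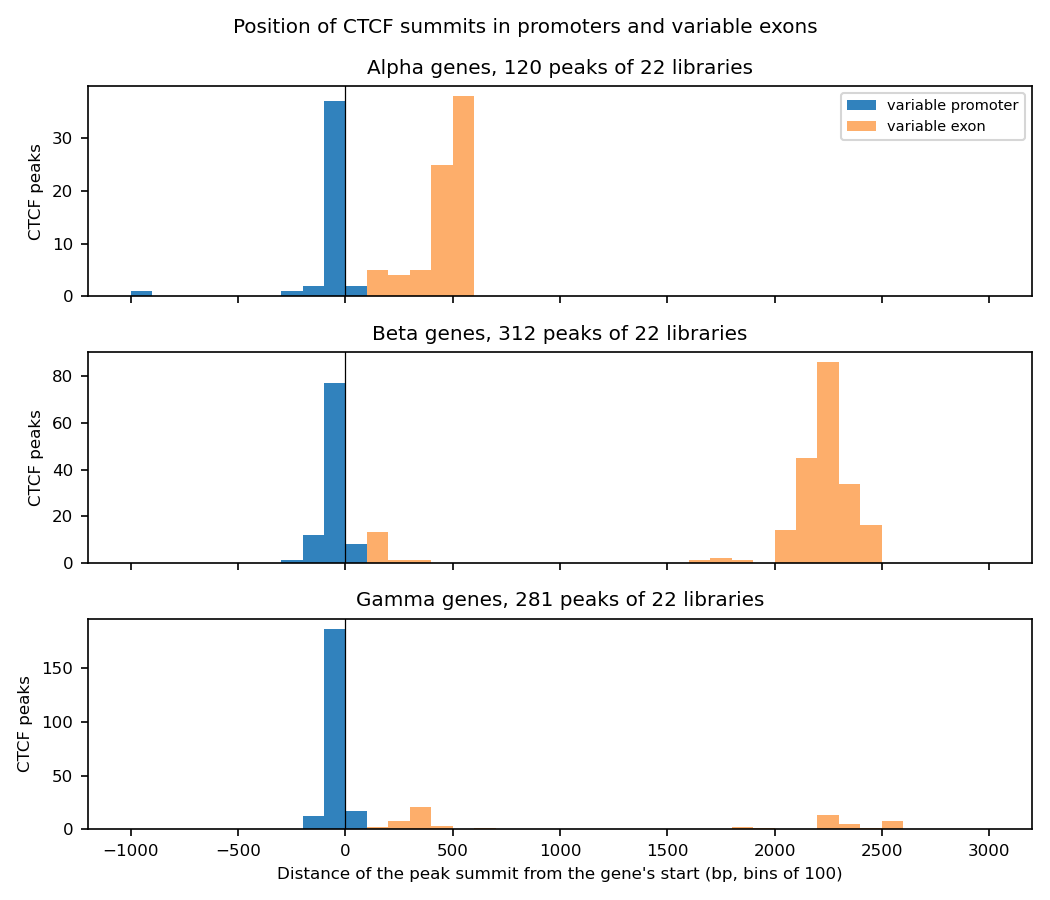
CTCF summits (count per 100 bp bin, all 22 libraries) by their distance in bp from the gene's start, for alpha (120 peaks), beta (312 peaks) and gamma genes (281 peaks), promoter peaks in blue and variable exon peaks in orange. Promoter summits pile up just before the start in all 3 clusters. By gene medians, alpha exon summits lie within +557 bp and beta exon summits, but for Pcdhb11, at +2050 bp or beyond. Pcdhb17 also had an exon site at +128 bp.

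The merged sites followed the same division. Of the 93 CTCF sites, 45 were assigned to variable promoters, 33 to variable exons and 6 to the enhancer intervals. Another 4 lay in the stretch between the beta and gamma clusters, 3 between variable exons, 1 in a constant exon and 1 in a constant-region intron. The enhancer intervals are the whole stretches between the alpha and beta clusters and downstream of the gamma cluster, up to the end of the examined interval. Coordinates of the enhancers themselves were not used, so a site assigned there need not lie in an enhancer. Only 3 sites (3.23%) were called in all 22 libraries, against 2.76% of all CTCF sites in the genome. At the other end, 9 sites (9.68%) were called in a single library, against 22.7%. The strength of a peak is given as its percentile of fold enrichment within its own list, where 100 is the strongest peak. A list that holds more weak peaks places the same site at a higher percentile. Percentiles from lists of unlike length are therefore not on the same scale, and differences between them can reflect list length. The median percentile over the libraries that called a site had a median of 33.5 over the interval and 31.2 over the genome.

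Sequence under the summits differed from most CTCF sites. The 12-letter CTCF core consensus, searched on both strands within 50 bp of the summit with up to 2 mismatches, was present at 28 of 93 interval sites (30.1%), against 74.1% of all CTCF sites and 42.6% of CTCF sites at protein-coding promoters. Among sites called in at least 11 libraries it was present at 11 of 36 (30.6%) in the interval and at 87.5% in the genome. In windows 1000 bp away, the shares were 4.30% and 8.59%. With up to 3 mismatches the shares rose to 63.4% and 92.1%. A window without the consensus says only that these letters were not found in it.

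Within the interval, the consensus was frequent in alpha exons and at most sites outside promoters and variable exons. Taken by gene, it was present at the exon summit of 9 of 10 alpha genes, each time on the plus strand, the direction of transcription. It was present at the promoter summit of only 2 of 11 alpha genes. At the summits of the merged alpha exon sites, it was not found for Pcdha5, Pcdha6, Pcdha12 and Pcdhac2. For the upstream Pcdha11 entry it lay there on the minus strand. In beta it was present at 2 of 17 exon and 5 of 20 promoter summits, and in gamma at 2 of 10 exon and 1 of 18 promoter summits. Of the 6 enhancer-interval sites 4 had it, 3 of these on the minus strand and so facing the genes. It was also present at 3 of 3 sites between variable exons and at 3 of 4 sites between the beta and gamma clusters. The single constant-exon site had it on the minus strand.

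**Figure D2:**
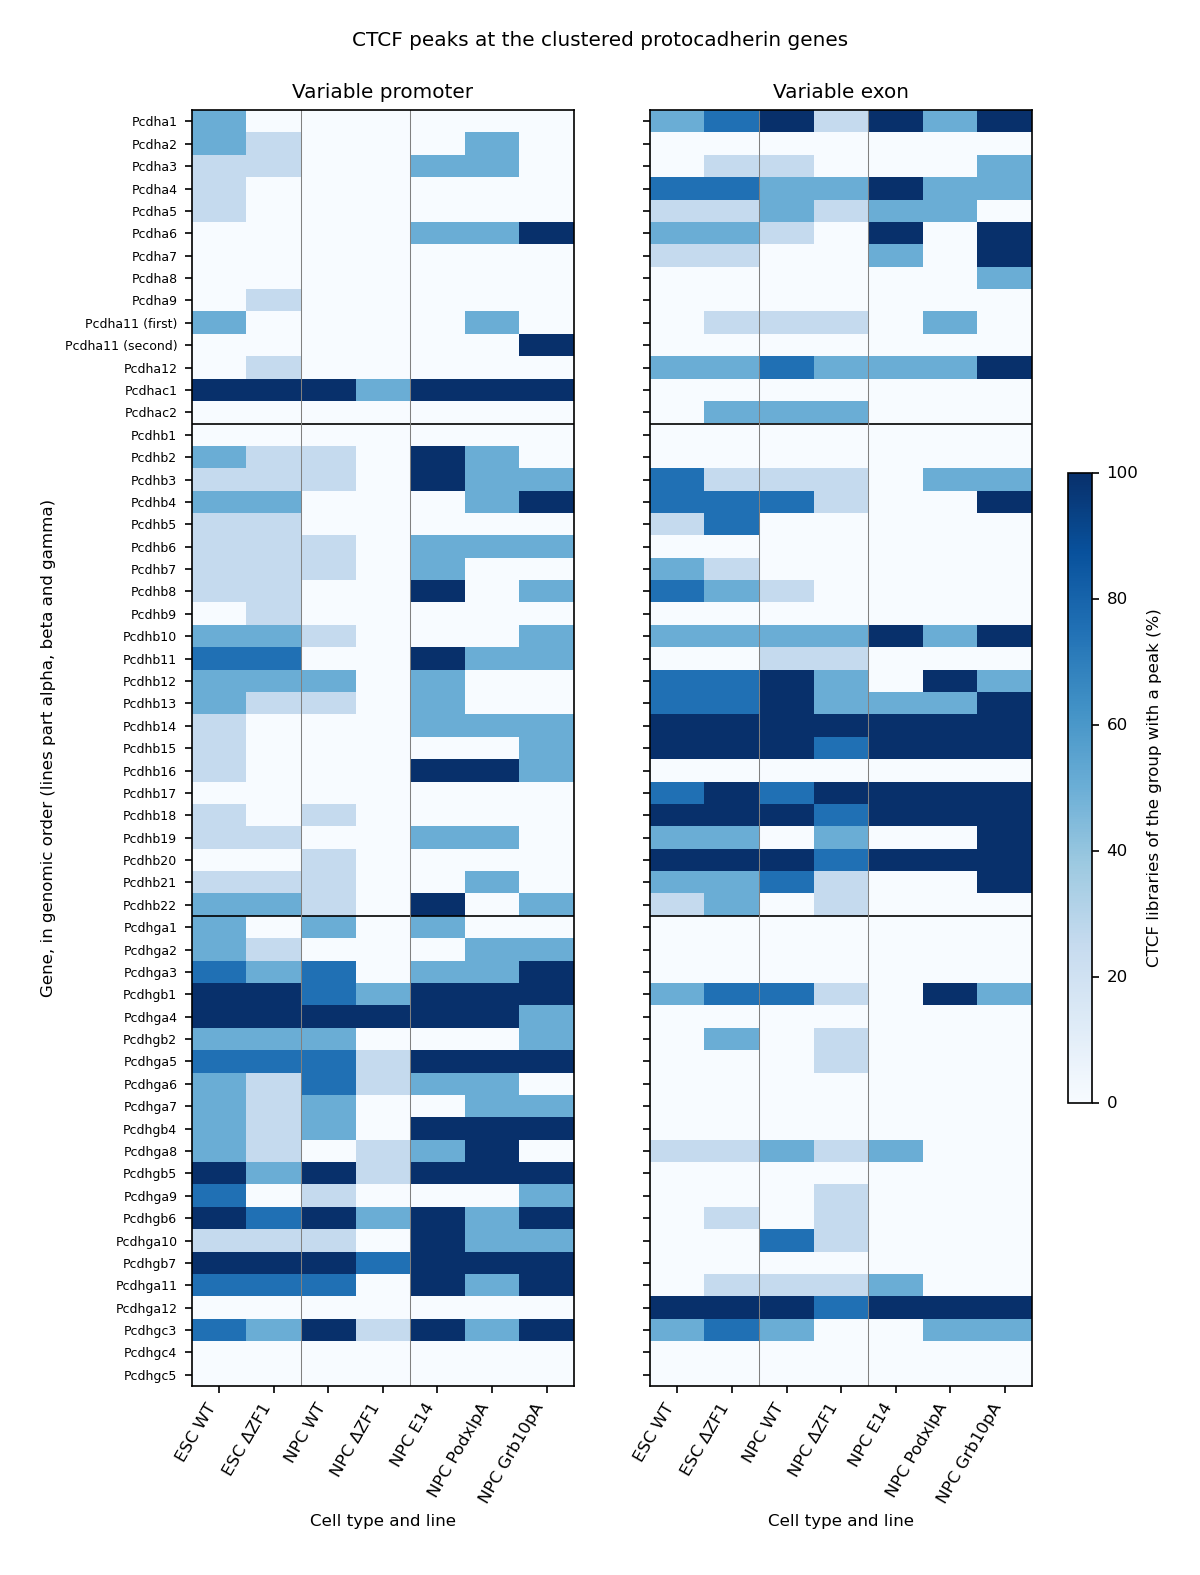
Share of a group's CTCF libraries (%) with a peak at the variable promoter (left) and in the variable exon (right) of each of the 57 genes, in genomic order, for the 7 groups (4 libraries in each rescue group, 2 in the others). Beta promoters are mostly pale in the rescue groups and blank in NPC ΔZF1, while beta exons from Pcdhb14 to Pcdhb20 and gamma promoters from Pcdhgb1 to Pcdhgc3 hold most of the dark cells.

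In the alpha cluster, most genes were called in few libraries, and Pcdhac1 was the exception. The 14 genes in 4 libraries make 56 gene-library pairs per rescue group. Promoter peaks filled 13 of these pairs in ESC WT, 8 in ESC ΔZF1, 4 in NPC WT and 2 in NPC ΔZF1, and exon peaks filled 11, 16, 16 and 9. In replicates 1 and 4, exon pairs outnumbered promoter pairs in every rescue group, at 7 against 6 in ESC WT, 13 against 4 in ESC ΔZF1, 10 against 2 in NPC WT and 7 against 1 in NPC ΔZF1. Within replicates 2 and 3 they did not in the ESCs, at 4 against 7 in ESC WT and 3 against 4 in ESC ΔZF1, but did in the NPCs, at 6 against 2 and 2 against 1. The exon peak of Pcdha1, the gene farthest from the constant exons, was found in 15 of 22 libraries, that of Pcdha4 in 14 and that of Pcdha12 in 13. Apart from Pcdhac1, no alpha promoter was called in more than 4 libraries. The symbol Pcdha11 stands for 2 neighbouring gene entries of the annotation, and both were counted.

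Pcdhac1, a C-type gene, had the strongest promoter site of the whole interval (chr18:37089551-37090350, at −61 bp). It was called in 20 of 22 libraries at a median percentile of 88.9. Its percentiles lay between 83.5 and 96.0 in the 4 ESC WT libraries and were 94.5, 90.8, 38.2 and 85.3 in ESC ΔZF1 replicates 1 to 4. In NPC WT they were 70.1 and 44.2 in replicates 1 and 4 and at least 94.7 in replicates 2 and 3, and NPC ΔZF1 had no peak in replicates 1 and 3 and values of 92.9 and 70.3 in replicates 2 and 4. These ranges overlapped between all 4 rescue groups. The values were 58.5 and 67.3 in E14, 89.0 and 57.6 in PodxlpA and 94.1 and 91.7 in Grb10pA NPCs.

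Pcdhac2, the other alpha C-type gene, had no promoter peak but an exon site at +190 bp that was called in 6 libraries, all of them replicates 1 or 4. The percentiles were 23.0 and 32.1 in ESC ΔZF1, 32.7 and 30.3 in NPC WT and 86.0 and 88.4 in NPC ΔZF1. No peak was called in ESC WT, E14, PodxlpA or Grb10pA. The values of NPC ΔZF1 lay above those of ESC ΔZF1 and NPC WT with no overlap, and all came from the replicates with wide peaks.

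Beta genes of the rescue groups carried CTCF mainly far inside their exon and less often at the promoter, and E14 NPCs showed the reverse order. Over 88 gene-library pairs, exon peaks filled 44 in ESC WT (50.0%), 44 in ESC ΔZF1 (50.0%), 38 in NPC WT (43.2%) and 30 in NPC ΔZF1 (34.1%). Promoter peaks filled 26 (29.5%), 21 (23.9%), 12 (13.6%) and 0. In ESC WT replicate 1 alone, promoters were called at 17 genes and exons at 16. In E14 NPCs, promoter peaks filled 18 of 44 pairs (40.9%) and exon peaks 13 (29.5%). The promoter and exon pairs were 10 and 15 of 44 in PodxlpA and 11 and 22 in Grb10pA. Of the 20 beta genes with a promoter peak anywhere, none was called in more than 10 of 22 libraries. The exons of 5 genes, Pcdhb14, Pcdhb15, Pcdhb17, Pcdhb18 and Pcdhb20, had a peak in 20 or more. For Pcdhb17 this count joins 2 separate exon sites, at +128 and +2396 bp, and neither alone was called in 20.

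The exon site of Pcdhb14 (chr18:37449402-37450316, at +2272 bp) was the only site at a protocadherin gene that was called in all 22 libraries, at a median percentile of 88.3. Its percentiles were 94.0, 87.7, 91.3 and 60.8 in ESC WT, 94.9, 68.0, 83.7 and 88.4 in ESC ΔZF1, 95.2, 90.2, 88.1 and 84.0 in NPC WT, and 86.4, 85.6, 53.6 and 94.4 in NPC ΔZF1. All groups overlapped. The exon site of Pcdhb18 (chr18:37491314-37491995, at +2199 bp) was called in 21 libraries at a median of 88.5. In NPC WT it stood at 93.1, 93.4, 78.0 and 86.3. In NPC ΔZF1 it stood at 46.1, 54.5 and 90.2 in replicates 1, 2 and 4, with no peak in replicate 3, so that only replicate 4 reached the range of NPC WT.

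Gamma genes were called mainly at promoters, except in the wide-peak replicates of NPC ΔZF1. Over 84 gene-library pairs, promoter peaks filled 50 in ESC WT (59.5%), 35 in ESC ΔZF1 (41.7%), 45 in NPC WT (53.6%) and 16 in NPC ΔZF1 (19.0%), whereas exon peaks filled 9, 15, 15 and 11. In replicates 1 and 4 of NPC ΔZF1 there were 7 promoter and 9 exon pairs, and within replicates 2 and 3 there were 9 and 2. The promoters of Pcdhga4 and Pcdhgb7 were called in 21 of 22 libraries each, that of Pcdhgb1 in 19, that of Pcdhgb6 in 18 and that of Pcdhgb5 in 17. Pcdhga12 had no promoter peak, but its exon site at +322 bp (chr18:37765605-37766280) was called in 21 libraries at a median percentile of 94.1.

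The gamma C-type genes differed among themselves. Pcdhgc3 had a promoter site at −92 bp (chr18:37806063-37806660, which also overlaps an exon of BC037039) in 15 of 22 libraries, and Pcdhgc4 and Pcdhgc5 had neither promoter nor exon peak. The Pcdhgc3 promoter stood at percentiles of 63.2, 22.9 and 13.5 in ESC WT replicates 1 to 3 and had no peak in replicate 4. In ESC ΔZF1 it was called in replicates 1 and 4, at 18.0 and 26.0. In NPC WT it stood at 63.4, 87.4, 91.3 and 87.4, all 4 at or above the highest ESC value. Of the NPC ΔZF1 libraries only replicate 4 called it, at 57.4. The NPC lines without a CTCF transgene had lower values than NPC WT, except PodxlpA replicate 1, with 29.8 and 37.3 in E14, 66.6 and no peak in PodxlpA and 44.0 and 35.7 in Grb10pA. Because ESC WT replicate 4 had no peak, this site did not enter the test of the sites called in all libraries. Without that library it passed the limma threshold in NPC WT against ESC WT, with a difference of 1.83 SD units of the rank score, an SE of 0.44 and an adjusted p of 0.0241, as 1 of 15 interval sites tested and 2.47% of the genome's.

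Downstream of the gamma constant exons, the interval held 5 CTCF sites, all in introns of Diaph1, and 2 of them were called in every library. These are named by their distance from the start of Pcdhgc5, the nearest member. The site at +32739 bp (chr18:37851921-37852684) had the highest median percentile of the interval, 95.7, and that at +64072 bp (chr18:37883352-37884030) had 92.7. The former ranged from 92.8 to 98.3 in ESC WT and ESC ΔZF1 and from 90.1 to 96.9 in NPC WT, and it stood at 78.2, 92.3, 51.4 and 84.4 in NPC ΔZF1. The latter was at 98.8, 92.9, 92.4 and 90.6 in ESC WT, between 75.9 (replicate 3) and 97.7 in ESC ΔZF1, 97.4, 89.4, 94.6 and 88.1 in NPC WT and 77.3, 89.4, 40.0 and 88.8 in NPC ΔZF1. Both were lowest in NPC ΔZF1 replicate 3, which has the shortest list.

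The site at +60851 bp (chr18:37880043-37880670) behaved differently. It was called in 3 ESC WT libraries, at 88.3, 50.9 and 78.7, and in 2 ESC ΔZF1 libraries, at 63.6 and 42.3. It was called in no rescue NPC library, but in E14 at 57.5 and 88.4, in PodxlpA replicate 1 at 88.9 and in Grb10pA at 48.6 and 56.1. The CTCF core consensus was not found at this site. The 2 weaker sites, at +57963 and +67617 bp, were called in 14 and 5 libraries. Between the alpha constant exons and Pcdhb1, where an alpha enhancer is known to lie, there was 1 CTCF site (chr18:37217250-37218644, −46982 bp from Pcdhb1). It was called in 3 ESC WT, 2 ESC ΔZF1, 2 NPC WT and 0 NPC ΔZF1 libraries and in both libraries of E14, PodxlpA and Grb10pA.

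**Figure D3:**
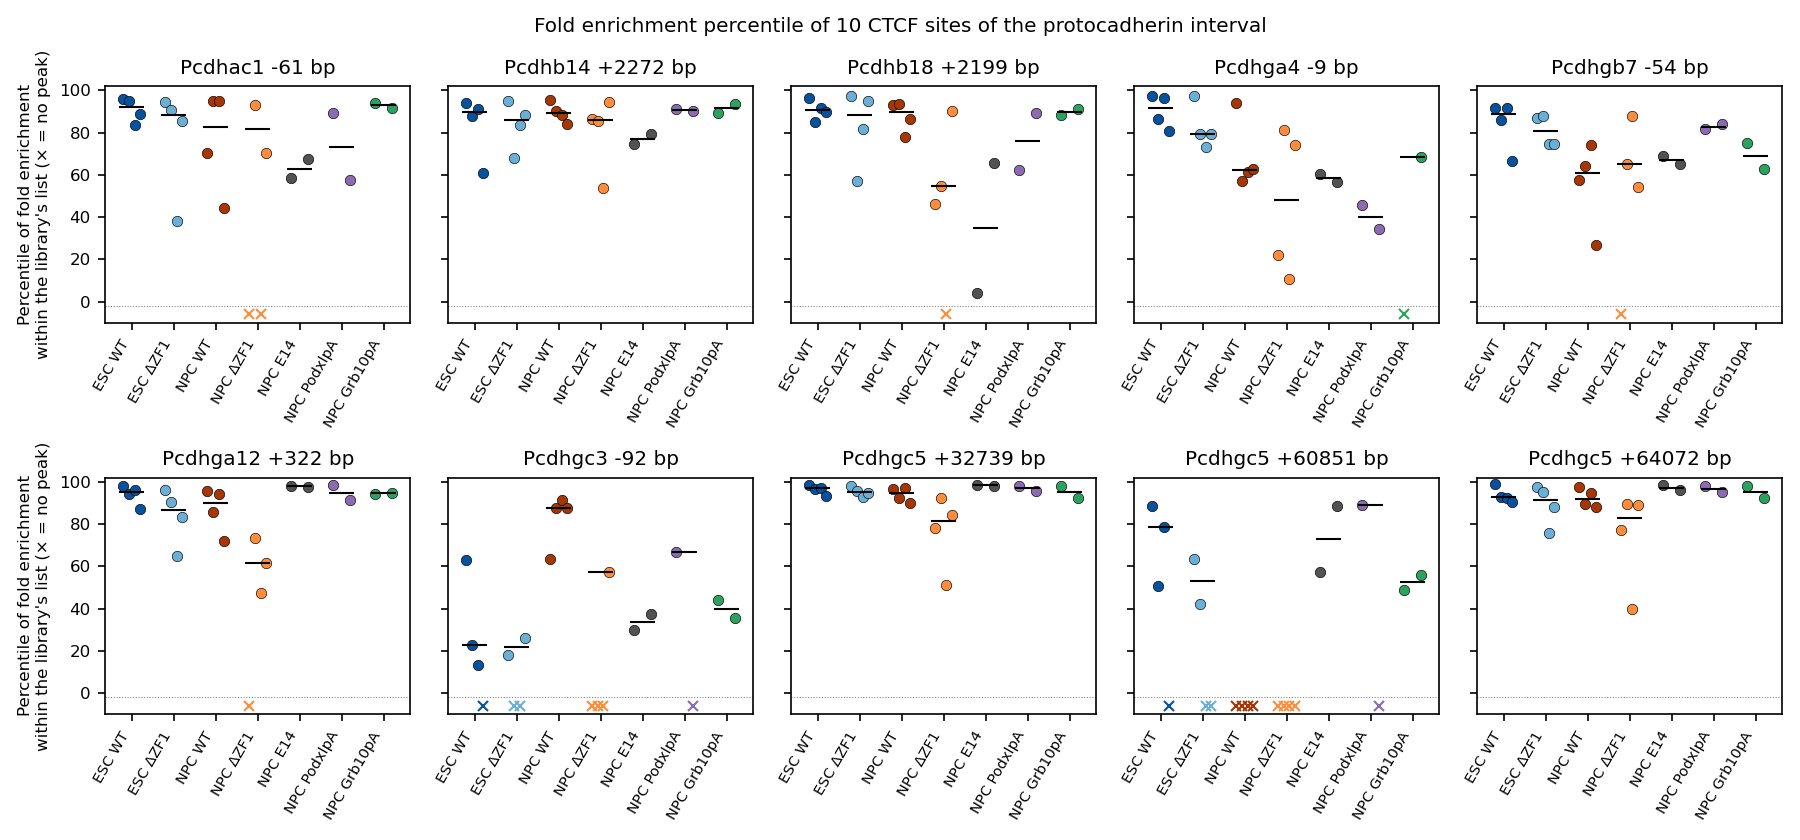
Percentile of fold enrichment within each library's list (0 to 100) for 10 CTCF sites in the 7 groups; points are libraries, horizontal lines are medians of the called libraries and crosses under the dotted line are libraries with no peak. Pcdhgc3 −92 bp lies at 63.4 to 91.3 in NPC WT and at 66.6 or lower, or without a peak, in the other libraries, Pcdhgc5 +32739 bp is high in nearly every library, and Pcdhgc5 +60851 bp has no peak in any of the 8 rescue NPC libraries.

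Smc3 was called on many CTCF sites of the interval in some library, but in all 14 libraries on 5 of them. All 43 Smc3 sites and 14 of 16 Rad21 sites overlapped a CTCF site of the interval. The exceptions were a Rad21 site at +6460 bp from Pcdhgc5 in 1 library and another at +22698 bp in 6 of 8 Rad21 libraries at a median percentile of 12.9. Smc3 peaks in all 14 Smc3 libraries lay on the CTCF sites at +21900, +32739 and +60851 bp from Pcdhgc5, at +322 bp of Pcdhga12 and in front of Pcdhb1. The Smc3 peak at +60851 bp had a median percentile of 99.4 and the Rad21 peak there, called in all 8 libraries, one of 99.8, although CTCF was called at this site in only 10 of 22 libraries. At +32739 bp the medians were 99.3 for Smc3 and 96.5 for Rad21. In front of Pcdhb1, Smc3 formed 2 separate peaks, 1 in 12 and 1 in 14 libraries, at medians of 83.8 and 85.9.

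Promoter and exon sites carried Smc3 in varying numbers of libraries. Pcdhac1 had Smc3 in 13 of 14 libraries and Rad21 in 4 of 8, the Pcdhgc3 promoter had Smc3 in 7, and Pcdhb14 had Smc3 in 2 of 14. The Smc3 calls on Pcdhgc3 were in both libraries of NPC WT, NPC ΔZF1 and E14 and in 1 ESC ΔZF1 library. In NPC ΔZF1, Smc3 was thus called in both libraries and CTCF in 1 of 4. These 2 Smc3 lists, of 30516 and 34104 peaks, were the longest for Smc3. The CTCF lists without a call, replicates 1 to 3, held 13639, 10242 and 5755.

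**Figure D4:**
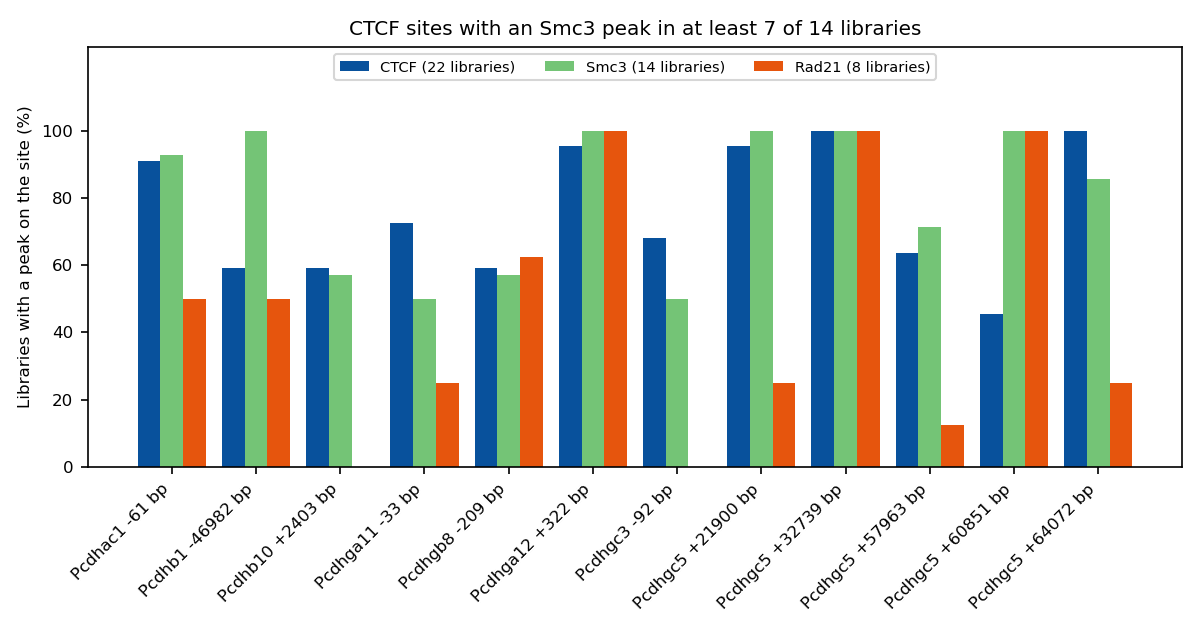
Share of libraries (%) with a CTCF (22 libraries), Smc3 (14 libraries) or Rad21 peak (8 libraries) at the 12 CTCF sites that carry Smc3 in at least 7 libraries. Sites at Pcdhga12 +322 bp, Pcdhgc5 +32739 bp and Pcdhgc5 +60851 bp carry Smc3 and Rad21 in every library, and Pcdhb10 and Pcdhgc3 carry no Rad21.

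The cohesin share was set against the genome for reproducible CTCF sites, those called in at least 3 of 4 libraries of a group. In ESC WT, 8 of 33 such interval sites (24.2%) had Smc3 in both libraries, against 36.1% of the genome's, and 6 (18.2%) had Rad21, against 15.7%. In ESC ΔZF1 it was 5 of 28 (17.9%) against 46.0% for Smc3 and 2 (7.14%) against 4.50% for Rad21. In NPC WT it was 6 of 29 (20.7%) against 48.2% and 3 (10.3%) against 17.5%. In NPC ΔZF1 it was 4 of 11 (36.4%) against 83.6% and 2 (18.2%) against 20.3%. The Smc3 share of the interval lay under the genome's in all 4 groups. Its 95% Wilson intervals were 12.8% to 41.0%, 7.88% to 35.6%, 9.85% to 38.4% and 15.2% to 64.6% in this order. These intervals treat neighbouring sites as independent, and sites recur between the groups. The difference from the genome was not tested. By element, Smc3 was on 4 of 4, 2 of 2, 2 of 3 and 2 of 2 enhancer-interval sites in the order of groups above, on 2 of 14, 1 of 8, 2 of 12 and 0 of 2 variable promoters and on 1 of 14, 1 of 15, 1 of 12 and 1 of 6 variable exons.

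The first comparison asked how removal of ZF1 altered CTCF calls in ESCs, where the calls of most interval sites were shared. Of the 33 reproducible ESC WT sites, 22 (66.7%, 95% Wilson interval 49.6% to 80.2%) were reproducible in ESC ΔZF1, against 64.3% in the genome. Without ESC ΔZF1 replicate 1, which has the longest list, the share was 42.4% (genome 36.6%). No site was called in all 4 libraries of one genotype and in none of the other, where the genome had 0.0149% of sites switched on and 0.311% switched off. Reproducible in ESC WT and called in at most 1 ESC ΔZF1 library were 2 of 33 sites (genome 13.0%), the exon site of Pcdhb3 and the promoter site of Pcdhga9, which had 3 WT calls and no ΔZF1 call. The opposite held for 1 of 28 sites (genome 5.54%), the exon site of Pcdhb5, with 1 WT and 3 ΔZF1 calls.

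Gamma promoters were called at 18, 10, 16 and 6 of 21 genes in ESC WT replicates 1 to 4 and at 15, 10, 4 and 6 in ESC ΔZF1, and the ranges overlapped. The difference of the means was −3.75 genes, and −1.92 without ESC WT replicate 1. Relative enrichment, tested by limma on rank scores of the sites called in all 8 libraries, differed at 0 of the 12 interval sites tested at an adjusted p of 0.05, against 0.173% of 5188 sites in the genome. With the replicate number as a block, the interval count was still 0, while the genome counts went from 1 higher and 8 lower to 72 and 120. By limma without a block, 2 of these 12 sites had an unadjusted p under 0.05, against 456 of 5188 in the genome. They were the exon sites of Pcdhb15 (difference 1.08 SD units, SE 0.39, adjusted p = 0.399) and Pcdhga12 (−0.59, SE 0.25, adjusted p = 0.493).

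The same comparison in NPCs gave fewer ΔZF1 calls at promoters of the beta and gamma clusters. Beta promoter peaks were found at 9, 1, 1 and 1 of 22 genes in NPC WT replicates 1 to 4 and at 0 in every NPC ΔZF1 replicate. The WT total rested on replicate 1, and without it the WT mean went from 3.00 to 1 gene per library. By pairs of replicates, NPC WT had 10 of 44 gene-library pairs in replicates 1 and 4 and 2 of 44 in replicates 2 and 3. In NPC ΔZF1 replicate 4, the peak that covers the Pcdhb11 promoter had its summit in the exon and was counted there. In replicate 3, the peak at the Pcdhb17 site at +128 bp, just beyond the promoter window, was also counted as an exon peak. Gamma promoter peaks were found at 13, 12, 14 and 6 genes in NPC WT and at 1, 6, 3 and 6 in NPC ΔZF1, and these overlapped only at the value of 6. Of 42 gene-library pairs, NPC WT filled 19 and NPC ΔZF1 7 in replicates 1 and 4, and they filled 26 and 9 in replicates 2 and 3. Beta exon peaks were found at 13, 9, 8 and 8 genes in NPC WT and at 8, 5, 3 and 14 in NPC ΔZF1, which overlapped fully.

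List length moved with these counts. The NPC ΔZF1 lists of replicates 1 to 3, with 13639, 10242 and 5755 peaks, were shorter than every NPC WT list, of 15052 to 30555 peaks, and the list of replicate 4, with 33452, was longer than all of them. That long list held 6492 peaks at protein-coding promoters of the genome, the most of any CTCF list, against 2523 to 4099 in NPC WT, while it held 7 promoter and 27 exon peaks in the protocadherin interval. NPC WT replicate 1, with 30555 peaks, held 23 promoter and 29 exon peaks there. The lists of at least 15052 peaks were also cut to their 15052 most significant ones, which leaves all NPC WT libraries but only replicate 4 of NPC ΔZF1. Beta promoters were then called at 1, 0, 0 and 1 genes in NPC WT and at 0 in NPC ΔZF1 replicate 4. At that length gamma promoters were called at 6, 7, 11 and 6 genes against 3, and beta exons at 7, 5, 3 and 8 against 6. Cut to the shortest list, of 5755 peaks, the mean number of gamma genes with a promoter peak was 1.25 in NPC ΔZF1 and differed from NPC WT by −0.250, and that of beta genes was 0 in both.

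**Figure D5:**
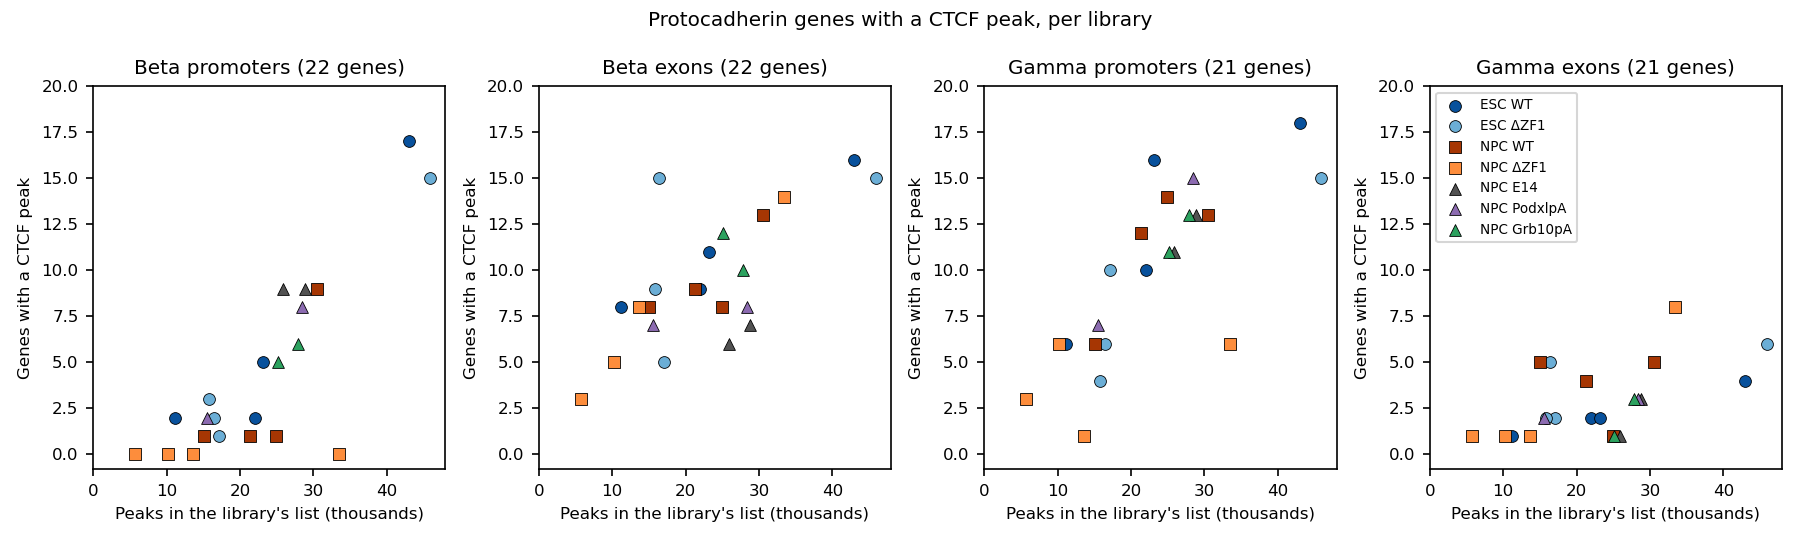
Number of genes with a CTCF peak at beta promoters, in beta exons, at gamma promoters and in gamma exons (vertical axes) against the number of peaks in the library's list (in units of 1000, horizontal axes), 1 point per library, ESC as circles, rescue NPC as squares and the other NPC lines as triangles. Counts climb with list length, and NPC ΔZF1 replicate 4, at 33452 peaks, lies at 0 beta and 6 gamma promoters but at 14 beta exons.

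Promoter and exon sites were also set beside other sites called in at least 2 NPC WT libraries. Of the interval sites called in at least 2 NPC WT libraries, 8 of 44 (18.2%) were called in no NPC ΔZF1 library, against 18.3% of all CTCF sites. Among variable promoters it was 6 of 19 (31.6%, 95% Wilson interval 15.4% to 54.0%), against 3.53% of CTCF sites at protein-coding promoters and 20.8% of all other sites. Among variable exons it was 1 of 19 (5.26%). The 6 promoter sites were those of Pcdhb10, Pcdhb12, Pcdhga1, Pcdhga3, Pcdhga7 and Pcdhgb4, and the exon site was that of Pcdhgc3. All but Pcdhga3 of the 6 promoter sites had the minimum of 2 WT calls. At exactly 2 calls the shares were 5 of 7 variable promoters (71.4%, 95% Wilson interval 35.9% to 91.8%), 9.60% of protein-coding promoters and 38.6% of other sites, at 3 calls they were 1 of 5, 3.44% and 17.6%, and at 4 calls 0 of 7, 0.543% and 3.04%. When protein-coding promoters were divided by WT percentile at 25, 50 and 75, their highest share was 7.66%. In ESCs, the corresponding values were 2 of 27 variable promoters (7.41%) and 2.12% of protein-coding promoters.

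Of the 29 reproducible NPC WT sites, 10 (34.5%, 95% Wilson interval 19.9% to 52.7%) were reproducible in NPC ΔZF1, against 36.7% in the genome. Without NPC ΔZF1 replicate 4 the share was 13.8% (genome 15.7%), and without NPC WT replicate 1 it was 52.6% (genome 54.7%). The switched sites numbered 0, where the genome had 0 switched on and 2.52% switched off. Within replicates 2 and 3, of the 29 interval sites called in both NPC WT libraries 12 were called in neither ΔZF1 library, a share equal to the genome's 41.4%, and the reverse held for 0 of 6 (genome 0.804%). Within replicates 1 and 4 it was 3 of 26 (genome 5.50%) and 1 of 13 (genome 10.7%). Reproducible in NPC WT with at most 1 ΔZF1 call were 11 of 29 sites (genome 28.9%), and the opposite held for 0 of 11 (genome 1.32%). Of those 11, 6 were merged sites assigned to gamma promoters (Pcdhga3, Pcdhga6, Pcdhgb5, Pcdhga10, Pcdhga11 and Pcdhgc3). Another 4 were exon sites (Pcdha1, Pcdhb4, Pcdhb21 and Pcdhgb1), and the last was the site at +57963 bp from Pcdhgc5. At Pcdhga10 the peak summit lay in the exon in 3 of the 4 NPC WT libraries and in the 1 NPC ΔZF1 library with a call. The Pcdhgb5 promoter, for example, had percentiles of 35.0, 18.3, 45.4 and 45.4 in NPC WT and 34.1 in NPC ΔZF1 replicate 2, its single call there.

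Only 4 interval sites were called in every NPC library of both genotypes and could be tested for relative enrichment. Of these, the exon of Pcdhb14, the promoter of Pcdhga4 and the sites at +32739 and +64072 bp from Pcdhgc5, limma called 0, with adjusted p from 0.763 to 0.956 and unadjusted p under 0.05 at none, and it called 0 of the 2366 sites tested in the genome (0 percent, with 176 at an unadjusted p under 0.05). Blocking by replicate number left the interval at 0 of 4 and gave 2 higher and 15 lower sites in the genome. The site at +32739 bp was lower in NPC ΔZF1 in all 4 same-numbered pairs, with a difference of −0.48 SD units and an SE of 0.32. Whether the effect of ΔZF1 differed between ESCs and NPCs was tested as an interaction over 2122 sites called in all 16 rescue libraries. None was called at an adjusted p of 0.05, 37 had an unadjusted p under 0.05, and the 4 interval sites each had an adjusted p of 0.997.

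The next comparison asked how CTCF calls differed between NPCs and ESCs with the WT protein. Of the 33 reproducible ESC WT sites, 21 (63.6%, 95% Wilson interval 46.6% to 77.8%) were reproducible in NPC WT, against 69.5% in the genome. None was switched, where the genome had 0.429% switched on and 0.383% switched off. Beta promoters were called at 17, 2, 5 and 2 genes in ESC WT against 9, 1, 1 and 1 in NPC WT, fewer in NPC WT at each replicate number. This order was not kept at equal list length. Cut to 15052 peaks, the counts were 0, 1 and 1 in ESC WT replicates 1 to 3 and 1, 0, 0 and 1 in NPC WT. The list of ESC WT replicate 4, with 11189 peaks, is shorter than that. With the full lists, the ranges of the 2 groups overlapped. The difference of the means with the full lists was −3.50 genes. It ranged from −5.50 to 0 when 1 library was left out, the latter without ESC WT replicate 1. Reproducible in ESC WT with at most 1 NPC WT call were 6 of 33 sites (genome 13.6%), the exons of Pcdhb3 and Pcdhb8, the promoters of Pcdhb11 and Pcdhga9, the promoter of Pcdhgb8, which is annotated as a polymorphic pseudogene and is no member, and the site at +60851 bp from Pcdhgc5. The opposite held for 1 of 29 sites (genome 10.6%), the Pcdhga10 site, called in 4 NPC WT libraries and 1 ESC WT library. In 3 of these 4 its summit lay in the exon and not in the promoter window.

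Relative enrichment differed between WT NPCs and ESCs at 0 of 13 interval sites by limma without a block, against 1.97% of 5983 sites in the genome. The promoter of Pcdhga4 (chr18:37684814-37685709) stood at percentiles of 97.3, 86.4, 96.4 and 80.6 in ESC WT and 93.8, 57.2, 61.5 and 62.7 in NPC WT. The promoter of Pcdhgb7 (chr18:37751366-37751956) stood at 91.5, 85.8, 91.4 and 66.5 and at 57.7, 64.0, 73.9 and 26.9. Each NPC value lay below the ESC value of the same replicate number, although the ranges overlapped. The difference in rank score was −1.04 for Pcdhga4 and −1.08 for Pcdhgb7, with adjusted p = 0.118 for both. With the replicate number as a block, used because the numbers paired the samples, both passed the threshold, with an SE of 0.27 and adjusted p = 0.0151 for Pcdhga4 and an SE of 0.31 and adjusted p = 0.0297 for Pcdhgb7. These were 2 of 13 interval sites, where the block called 9.86% of the sites in the genome. Within replicates 1 and 4 alone neither was called, and of 16 interval sites (genome 2.46%) the Pcdhac1 promoter was, with a difference of −1.46 and an adjusted p of 0.0434.

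With the ΔZF1 protein, 11 of the 28 reproducible ESC sites (39.3%, 95% Wilson interval 23.6% to 57.6%) were reproducible in NPCs, against 42.2% in the genome. The share was 14.3% (genome 18.4%) without NPC ΔZF1 replicate 4 and 78.6% (genome 65.7%) without ESC ΔZF1 replicate 1. Again 0 were switched, where the genome had 0 switched on and 1.90% switched off. Reproducible in ESC ΔZF1 with at most 1 NPC ΔZF1 call were 8 of 28 sites (genome 27.1%), which included the exons of Pcdha1, Pcdhb4, Pcdhb5, Pcdhgb1 and Pcdhgc3 and the promoters of Pcdhb11 and Pcdhga11. The opposite held for 0 of 11 (genome 1.10%). Of 4 interval sites limma called 0, as it did of 2284 sites in the genome (0 percent, with 98 at an unadjusted p under 0.05). Within replicates 1 and 4 alone it called 4 of 13 interval sites, against 15.3% of 9005 sites in the genome. The Pcdhac2 exon was higher in NPC ΔZF1 by 1.40 (adjusted p = 0.0166), and the Pcdhb18 exon (−1.24, adjusted p = 0.0127), the Pcdhga4 promoter (−1.57, adjusted p = 0.00995) and the site at +32739 bp (−1.07, adjusted p = 0.0105) were lower. Within replicates 2 and 3 it called none.

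Smc3 enrichment on the protocadherin sites did not differ by genotype at the threshold. Limma called 0 of 7 interval sites in ESCs, against 0.123% of 6506 sites in the genome, and 0 of 9 in NPCs, against 0.453% of 12137. In NPCs, 1706 of 12137 sites in the genome had an unadjusted p under 0.05, as had 3 of the 9 in the interval. These were the sites near +64072 bp (difference 0.86, SE 0.33, adjusted p = 0.231) and +21900 bp (0.61, SE 0.28, adjusted p = 0.323) from Pcdhgc5 and the Pcdhgc3 promoter (0.77, SE 0.37, adjusted p = 0.351), all higher in ΔZF1. Each of these fits held the 4 libraries compared and so rests on 2 residual degrees of freedom besides the spread pooled over sites.

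The last comparisons set PodxlpA and Grb10pA against E14, and no interval site passed the limma threshold in either. The E14 lists held 43 and 52 interval peaks, the PodxlpA lists 54 and 29 and the Grb10pA lists 52 and 47. Beta promoters were called at 9 and 9 genes in E14, 8 and 2 in PodxlpA and 6 and 5 in Grb10pA, while the second PodxlpA list, with 15505 peaks, was the shortest of the 6. Beta exons were called at 6 and 7 genes in E14, 8 and 7 in PodxlpA and 10 and 12 in Grb10pA, so that Grb10pA lay above E14 in both libraries. Gamma promoters were called at 11 and 13, 15 and 7, and 13 and 11 genes. Limma called 0 of 20 interval sites for PodxlpA against E14 (genome 0.0330% of 12127) and 0 of 26 for Grb10pA (genome 1.62% of 15539). For PodxlpA, 1 interval site had an unadjusted p under 0.05, against 510 of 12127 sites in the genome. The exon site of Pcdhb18 stood at percentiles of 4.00 and 65.6 in E14, 62.5 and 89.3 in PodxlpA and 88.5 and 90.9 in Grb10pA, and Grb10pA lay above E14 without overlap. Its difference was 2.11 (SE 0.61, adjusted p = 0.0595 by limma) for Grb10pA and 1.64 (SE 0.72, adjusted p = 0.999) for PodxlpA. For Grb10pA it passed the threshold on quantile-normalized log2 fold enrichment, with adjusted p = 0.0246, where 3.69% of sites in the genome were called, and with a replicate block, where 3.19% were, although the replicate numbers of these lines do not pair the samples. It also passed, together with the Pcdhac1 promoter (adjusted p = 0.0415), when E14 replicate 2 was left out, where the genome share was 10.6%. Both comparisons use the same 2 E14 libraries.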

How the data were processed

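CTCF, Rad21 and Smc3 were mapped by ChIP-seq, and 44 of the 54 samples had a peak list. The 10 inputs were not analysed here. The authors aligned reads to mm10 with Bowtie2, kept a mapping quality of at least 30, removed duplicates with Picard and blacklisted regions with bedtools, and called peaks in each sample with MACS2 at a q of 0.01. Versions and the input set against each sample are not given in the sources used here. The deposited columns used are the position, the summit offset, the fold enrichment over background and the −log10 q, and the deposited −log10 p and display score were not used. The lists state no read depth, and the study's count test was not repeated.

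Peaks of an antibody that overlapped by at least 1 bp were merged across libraries. Fold enrichment was ranked within each list and given as a percentile. For limma 3.58.1 in R 4.3.3 it was ranked again within each library over the sites called in every library of the 2 groups compared. These ranks were turned into normal scores (SD units) and fitted to the 2 groups. The p-values were adjusted by Benjamini-Hochberg over all those sites. Other steps used Python 3.11.15, pandas 2.3.3, scipy 1.17.1 and matplotlib 3.10.9, with GENCODE M21 gene models. A promoter reached from 1000 bp upstream to 100 bp downstream of a start. Genes were counted by the summit of each peak and sites by the merged peak, so that a wide peak can count for an exon and touch a promoter site. Wilson intervals (95%) cover counting error only. The limma step was tested on simulated data.

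The members, element lists and tests were chosen with earlier results of these data known. Sites named are those of the C-type genes, those called in all 22 CTCF libraries, switched, reproducible in one group with at most 1 call in the other, or past the limma threshold, those in the enhancer intervals and the 5 of highest median percentile. Pcdhb15, Pcdhb20 and other genes outside this rule were named after their values were seen. Deviations from the group mean correlated between same-numbered samples at 0.22 to 0.59 in the 4 CTCF rescue comparisons, so the numbers pair those samples. The labels do not say that replicates are separate cultures, so p-values measure the spread between these samples. Peak names inside the replicate 4 lists carry the replicate number 2, and the labels were followed.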

Additional observations from a re-analysis of the deposited data

Results flagged for a closer look

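Of 60 groups of 4 libraries tested for a library that stands apart, 6 met the limit, and chance gives about 1 in 20. In ESC ΔZF1, replicate 1 had promoter peaks at 15 beta genes against 1 to 3 in the others, and in NPC WT, replicate 1 had them at 9 against 1 each. NPC WT replicate 1 also had any CTCF peak at 9 alpha genes against 3 or 4. Both libraries have the longest list of their group. In NPC ΔZF1, replicate 4, again the longest list of its group, had exon peaks at 8 gamma genes against 1 each. The Pcdhac1 promoter was low in ESC ΔZF1 replicate 3, at a percentile of 38.2 against 85.3 to 94.5. The Pcdhgc3 promoter was lowest in NPC WT replicate 1, at 63.4 against 87.4 to 91.3. Cut to 15052 peaks, the beta promoter counts were 0 in ESC ΔZF1 replicate 1, with 0, 3 and 1 in the others, and 1 in NPC WT replicate 1, with 0, 0 and 1 in the others, so that neither library stood apart at equal length. NPC ΔZF1 replicate 4 then had 2 gamma exon genes, and the other lists of its group are shorter than that length.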

How the results depend on the processing

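Each choice was changed in turn, and the counts of beta and gamma genes per library were added to the alternatives after the data had been seen. With the replicate number as a block, the limma calls in the interval went from 0 to 2 for NPC WT against ESC WT and from 0 to 1 (Pcdhb18, genome 3.19%) for Grb10pA against E14, and the block changed no other interval count. For Grb10pA and PodxlpA the same-numbered samples correlated at only 0.05, so the numbers do not pair them. Quantile-normalized fold enrichment gave 1 call for Grb10pA. Within replicates 1 and 4 there was 1 call for NPC WT against ESC WT and 4 for NPC ΔZF1 against ESC ΔZF1. In all, 35 of 40 limma counts stayed as reported, leave-one-out fits apart.

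Switched sites, 0 as reported, were counted again within pairs of replicates, where only 2 libraries a group had to be alike. Replicates 1 and 4 gave 2 for ESC ΔZF1 (genome 1228 of 15374 on, 96 of 10746 off). They gave 4 for NPC ΔZF1 (10.7% on, 5.50% off). For NPC WT against ESC WT they gave 2 (843 of 12758 on, 546 of 10746 off). For NPC ΔZF1 against ESC ΔZF1 they gave 4 (873 of 12440 on, 1427 of 15374 off). In the same order, replicates 2 and 3 gave 3 (232 of 9234 on, 2411 of 16083 off) and 12 (0.804% on, 41.4% off). Last came 8 (1309 of 15119 on, 1292 of 16083 off) and 2 (56 of 3855 on, 2425 of 9234 off). There was 1 for NPC WT against ESC WT at equal peak numbers and 1 for NPC ΔZF1 against ESC ΔZF1 at a −log10 q of at least 5. The retained share in ESC ΔZF1 was 83.3% within replicates 1 and 4 (genome 80.9%). At equal peak numbers the NPC difference in beta promoter genes was 0 in place of −3.00 and that in gamma promoter genes −0.250 in place of −7.25. Within replicates 1 and 4 the NPC difference in beta exon genes was 0.500 and so turned its sign. The cause was not tested.

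Without one replicate at a time, the retained shares ranged from 42.4% to 86.7% in ESC ΔZF1, from 13.8% to 52.6% in NPC ΔZF1, from 48.5% to 93.3% in NPC WT against ESC WT and from 14.3% to 78.6% in NPC ΔZF1 against ESC ΔZF1. The genome's shares ranged from 36.6% to 87.8%, 15.7% to 54.7%, 45.4% to 91.0% and 18.4% to 65.7% in the same order. Switched sites ranged from 0 to 1 in 3 of these comparisons and from 0 to 3 for NPC ΔZF1 against NPC WT. The 3 were switched off without NPC ΔZF1 replicate 4, as were 1066 of 8851 sites in the genome. Limma calls ranged from 0 to 1 for NPC WT against ESC WT and from 0 to 2 for Grb10pA, and were 0 in every such fit of the other 6 comparisons. Where 1 library was left in a group of 2, it was assumed to vary like the other group of the fit. Depth per library is unknown, so weak sites missing from short lists cannot be told from unbound ones.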

Other observations

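The protocadherin interval was set apart from its surroundings on the upstream side. The CTCF summit nearest to it upstream lay 96979 bp before its border, and the nearest downstream lay 8225 bp after it. Interval sites were wider than others, with a median merged width of 578 bp against 440 bp over the genome. Pcdhgb8, a polymorphic pseudogene of the gamma cluster and no member, had a CTCF site at −209 bp in 13 of 22 libraries. It was called in 4 ESC WT, 2 ESC ΔZF1, 1 NPC WT and 0 NPC ΔZF1 libraries and in both libraries of E14, PodxlpA and Grb10pA, and it carried Smc3 in 8 of 14 libraries. A site 52288 bp after the start of Pcdhb22, between the beta and gamma clusters, was called in both E14 libraries and in no other.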
